A study of Mus musculus with 24 samples.

Results

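The 7 genes described here are Ttr, Folr1, Clic6, Otx2, Kl, Aqp1 and Enpp2, which are strongly expressed in the choroid plexus. They were taken by symbol from the study's gene table, which lists 48709 genes, and all 7 were among the 20857 genes with at least 1 count in every cerebral cortex library. The cortex was dissected from C57BL/6J mouse neonates (strain as labelled), aged 3 to 5 days. The study's methods name C57BL/6NJ mice and day 5 of age. The dams breathed either re-aerosolized nano-sized traffic particulate matter (nPM) or filtered air. Exposure lasted 5 h per day on 3 days per week from gestational day 2 until birth. The labels give the nPM dose as 300 mg/m3 and the study's methods as 300 μg/m3. There were 12 cortex libraries, with 3 in every combination of sex and treatment. The 3 neonates of each sex and exposure came from different litters. Whether males and females of the same exposure shared litters is not given, and the tests treated all libraries as independent. The cortex libraries were sequenced on lane 2 (8 libraries, 2 for each sex and exposure) and lane 3 (4 libraries, 1 for each). The series also holds 12 libraries of whole blood, and the labels do not tie them to cortex samples.

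The choroid plexus is a vascular fold of the brain ventricles, and its epithelium secretes cerebrospinal fluid. It lies in the lateral ventricles under the cortex and is not part of the cortical tissue itself. Ttr encodes transthyretin, the carrier of thyroxine and of retinol-binding protein in the cerebrospinal fluid. Folr1 encodes folate receptor alpha, which moves folate across the epithelium, and Aqp1 the water channel of its ventricular face. Clic6 is a chloride intracellular channel protein. Otx2 is a homeodomain transcription factor needed to form the tissue. Kl encodes klotho, the co-receptor of FGF23, and Enpp2 encodes autotaxin, the secreted enzyme that makes lysophosphatidic acid. Kl is also used by neurons, Enpp2 by oligodendrocytes and Aqp1 by red blood cells and vessels.

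RefSeq promoter windows on GRCm38.p6, which has the coordinates of mm10, were matched for 3 of the 7 genes, Kl, Aqp1 and Otx2. They are shown because OTX2 is itself a regulator in this epithelium and binds sites with the letters TAATCC, searched on both strands. The 250 bases before a start site are printed in gene direction, with a match in capitals. Otx2 has 4 such windows, and the 1 with a match is shown.
Otx2, chr14:48665110-48665359, minus strand: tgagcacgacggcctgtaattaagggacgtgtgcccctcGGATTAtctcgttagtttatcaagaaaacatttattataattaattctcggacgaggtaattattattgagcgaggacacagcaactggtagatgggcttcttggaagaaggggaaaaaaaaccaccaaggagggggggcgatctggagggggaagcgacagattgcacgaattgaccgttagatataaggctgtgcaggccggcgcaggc
Kl, chr5:150952357-150952606, plus strand: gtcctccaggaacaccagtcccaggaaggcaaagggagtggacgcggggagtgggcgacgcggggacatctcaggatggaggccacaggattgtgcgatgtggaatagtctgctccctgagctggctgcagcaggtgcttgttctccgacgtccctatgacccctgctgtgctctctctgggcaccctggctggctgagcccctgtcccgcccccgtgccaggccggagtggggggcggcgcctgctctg
Aqp1, chr6:55336049-55336298, plus strand: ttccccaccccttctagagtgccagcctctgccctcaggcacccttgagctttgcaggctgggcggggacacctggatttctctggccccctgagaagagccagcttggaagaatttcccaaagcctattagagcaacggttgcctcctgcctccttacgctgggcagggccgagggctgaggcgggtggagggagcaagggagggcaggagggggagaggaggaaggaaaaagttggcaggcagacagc
The match in Otx2, GGATTA, is the reverse complement of these letters and began 211 bases before the start site, and no match was found in the windows of Kl and Aqp1. Of all 27025 genes with a window of this length 7.21% held them in at least 1 window on either strand, as did 3 of the 29 other choroid plexus genes with a window.

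The positions of the genes on mm10 were chr18:20665250-20674324 for Ttr (ENSMUSG00000061808), chr7:101858331-101870788 for Folr1 (ENSMUSG00000001827) and chr16:92485736-92541243 for Clic6 (ENSMUSG00000022949). Otx2 (ENSMUSG00000021848) lies at chr14:48657679-48667644, Kl (ENSMUSG00000058488) at chr5:150952607-150993817, Aqp1 (ENSMUSG00000004655) at chr6:55336432-55348555 and Enpp2 (ENSMUSG00000022425) at chr15:54838898-54920146. In the gene table Ttr overlaps Gm16090 and Folr1 overlaps Anapc15, each on the opposite strand, and Clic6 overlaps 2410124H12Rik on the same strand. Whether counting used the strand is not given in the sources used here, so reads of those overlapping pairs may be shared.

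Ttr stood far above the other genes in cortex. Per length of gene, its median was 300.0 RPKM (counts per kilobase of gene length, scaled to library size by TMM, range 22.3 to 397.2 over 12 libraries). Enpp2 followed with a median of 37.8 RPKM (28.6 to 50.7). The ranges of these 2 genes met only through 1 library, V14, where Enpp2 was above Ttr. Aqp1, Folr1 and Clic6 had medians of 1.87, 1.49 and 1.15 RPKM, and their ranges overlapped (0.458 to 2.41, 0.301 to 2.17 and 0.214 to 1.80). Kl and Otx2 were lowest, with medians of 0.457 and 0.405 RPKM and overlapping ranges (0.262 to 0.560 and 0.0322 to 0.721). The cortical identity of the libraries was checked with 10 genes of cortical projection neurons (among them Neurod6, Neurod2 and Tbr1), whose summed level was 1022 to 1269 CPM (counts scaled to a common library size) in the 12 libraries. Library totals were 22301409 to 33804371 counts in cortex and RIN was 9.4 to 9.9.

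V14, a male control on lane 2, had the lowest level of each of the 7 genes. Levels between libraries are given from here on as TMM-scaled CPM. Ttr was at 27.2 CPM in V14 (747 counts), against a lowest value of 223.8, a median of 366.5 and a highest of 484.2 CPM in the other 11 libraries. V14 thus held 7.43% of the median of the others (95% Poisson interval of the V14 count 6.91 to 7.98%, counting error only). Otx2 had 3 counts in V14, or 0.109 CPM, against 0.462, 1.38 and 2.45 CPM as lowest, median and highest of the others. This was 7.93% of their median (1.63 to 23.2%), an interval set by the low count. Clic6 had 0.838 CPM in V14 and 2.70, 4.51 and 7.04 CPM in the others. Folr1 had 0.692 CPM against 2.38, 3.44 and 4.99 CPM. Aqp1 had 1.20 CPM against 3.23, 5.02 and 6.33 CPM. These 3 genes of transport were therefore at 18.6%, 20.1% and 24% of the median of the others. Kl reached 2.44 CPM in V14 and 2.99, 4.41 and 5.23 CPM in the others. Enpp2 reached 99.2 CPM in V14 and 115.7, 133.1 and 176.0 CPM in the others. Kl and Enpp2 kept 55.4% and 74.5% of the median. In such bulk libraries fewer cells of a type and less RNA per cell cannot be told apart.

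**Figure D1:**
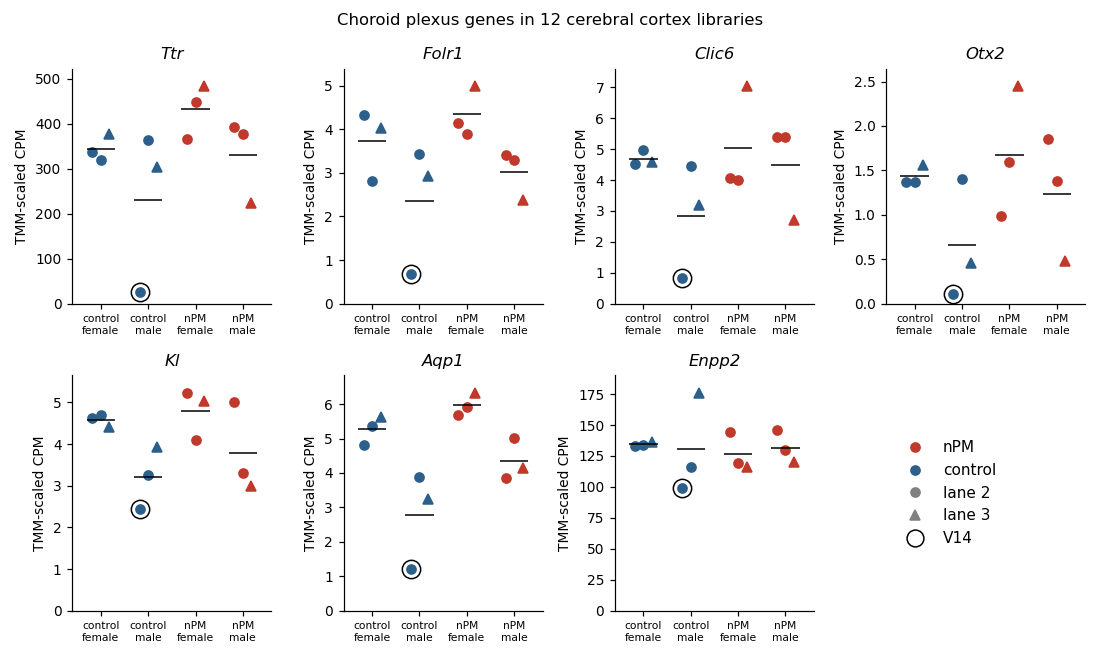
Level of each gene (TMM-scaled CPM, linear axes from 0) in the 12 cortex libraries by exposure and sex, with 1 point per library, the group mean as a line, lane by symbol and V14 circled. V14 is the lowest point in all 7 panels, and V20, an nPM female on lane 3, is the highest for Ttr, Folr1, Clic6, Otx2 and Aqp1.

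The high end belonged mostly to V20, an nPM female on lane 3. It had the highest level of Ttr, Folr1, Clic6, Otx2 and Aqp1, while V09, an nPM female, was highest for Kl and V24, a control male, for Enpp2. Below V20 and above V14 the other libraries still spread. V23, an nPM male on lane 3, was second lowest for Ttr (223.8 CPM), Folr1, Clic6 and Kl, and V24 for Otx2 and Aqp1. The SD of log2 CPM over the 12 libraries was 1.11 for Ttr, 1.18 for Otx2, 0.77 for Clic6, 0.73 for Folr1, 0.64 for Aqp1, 0.35 for Kl and 0.21 for Enpp2. Without V14 the values were 0.30, 0.74, 0.37, 0.31, 0.31, 0.28 and 0.18. The median SD over the 7 genes fell to 0.31 and that over all 20857 genes was 0.17 in the same 11 libraries. Enpp2 was close to that of all genes, and the other 6 were above it. Among the 15699 genes with a mean of at least 1 CPM the median SD was 0.125, and all 7 genes were above that.

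Most markers of the choroid plexus that are not among the 7 genes were low in V14 too. Of 33 such genes 23 were lowest in V14, and V14 was below the median of the others in 30. The share of all genes lowest in V14 is not given here, and counts for other lists follow below. Tmem72 and the potassium channel gene Kcne2 were at 4.94% (95% Poisson interval 1.02 to 14.4%) and 7.64% (2.08 to 19.6%) of the median of the others. The ion channel gene Kcnj13 was at 26.5%. The 4 genes of the list with the highest RPKM were less alike. 1500015O10Rik, a secreted peptide gene of the epithelium, was at 20.6%, but Igfbp2, an insulin-like growth factor binding protein, was at 84.8% in V14, the kinase scaffold gene Cab39l at 90.7% and the monoamine transporter gene Slc29a4 at 112.0%.

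**Figure D2:**
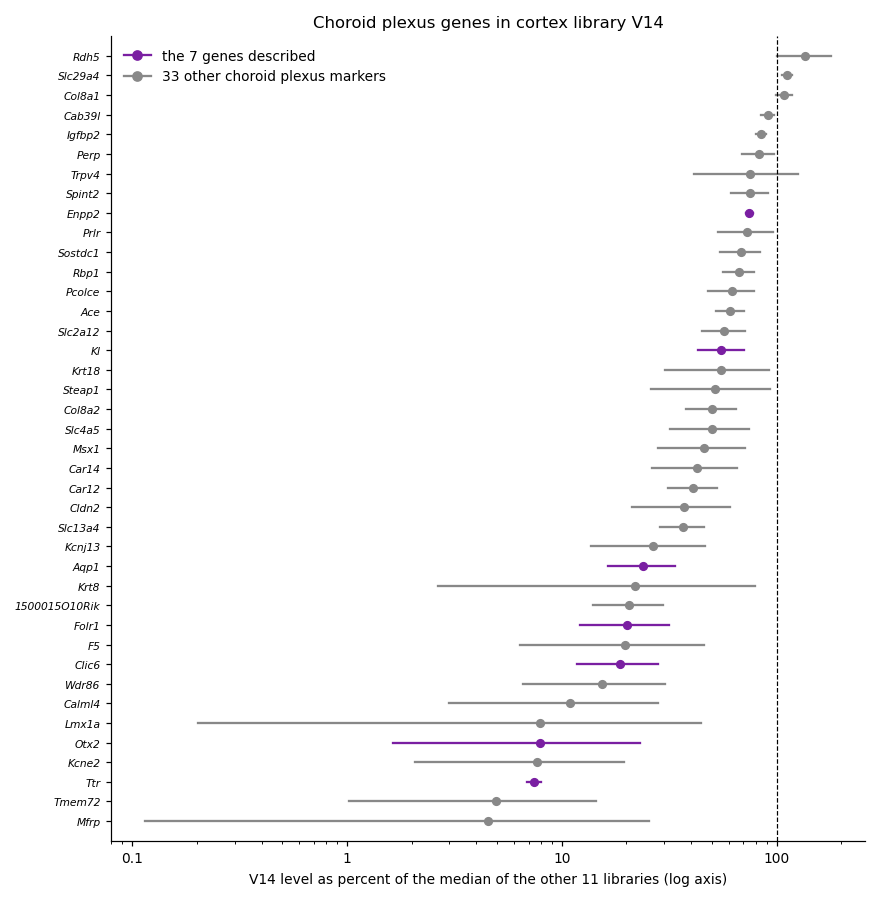
Level in V14 as a percent of the median of the other 11 cortex libraries (log axis) for the 7 genes (purple) and 33 other choroid plexus markers (grey), with 95% Poisson intervals of the V14 count as bars. Mfrp, Tmem72, Ttr, Kcne2, Otx2 and Lmx1a lie under 10%, and 3 of the 40 genes, all outside the 7, lie above 100%.

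Other tissues differed in V14 too. Among 15699 genes with a mean of at least 1 CPM, 35 were below 50% of the lowest other library in V14, against 1 to 9 for each of the other libraries. These 35 included Ttr, Folr1, Clic6, Otx2 and Aqp1, and Drd2, Adora2a, Ppp1r1b, Penk and Isl1 of 10 striatal genes. They also included 6 of the 33 other choroid plexus genes, of which 26 had a mean of at least 1 CPM. The striatal list summed to 120.4 CPM in V14 and 183.5 to 411.3 CPM in the others. Genes of endothelium and pericytes (Cldn5, Pecam1 and Cdh5 among 12) summed to 304.5 CPM in V14 against 385.6 to 417.8 CPM, and meningeal genes (Col1a1, Col1a2 and Col3a1 among 15) to 273.0 against 299.7 to 523.2 CPM. Cortical neuron genes were inside the range of the others at 1199 CPM. V14 was lowest for 11 of the 12 endothelial and pericyte, 11 of the 15 meningeal and 9 of the 10 striatal genes. It was lowest for 4 of 12 ependymal genes and 5 of 12 genes of thalamus, hypothalamus and midbrain. For cortical projection neurons this held for 1 of 10, for oligodendrocytes 1 of 12, for hippocampus and hem 0 of 9 and for red blood cells 2 of 9. V14 had 28202344 counts and a RIN of 9.5, both within the range of the other libraries. The part of any of these in the low levels of V14 was not tested.

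The relation between the genes was first asked across all 12 libraries, on log2 CPM. Ttr correlated with Folr1 (r = 0.97, rho = 0.69), Clic6 (r = 0.95, rho = 0.70), Otx2 (r = 0.91, rho = 0.92), Aqp1 (r = 0.92, rho = 0.67) and Kl (r = 0.72, rho = 0.57). For Enpp2 r was 0.51 and rho 0.03. By permutation, adjusted over the 6 relations, r had p = 0.00039 for Folr1 and Otx2, 0.00048 for Clic6, 0.00576 for Kl and Aqp1 and 0.145 for Enpp2. The adjusted p of rho was 0.0006 for Otx2, 0.0308 for Folr1, Clic6 and Aqp1, 0.0712 for Kl and 0.919 for Enpp2.

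**Figure D3:**
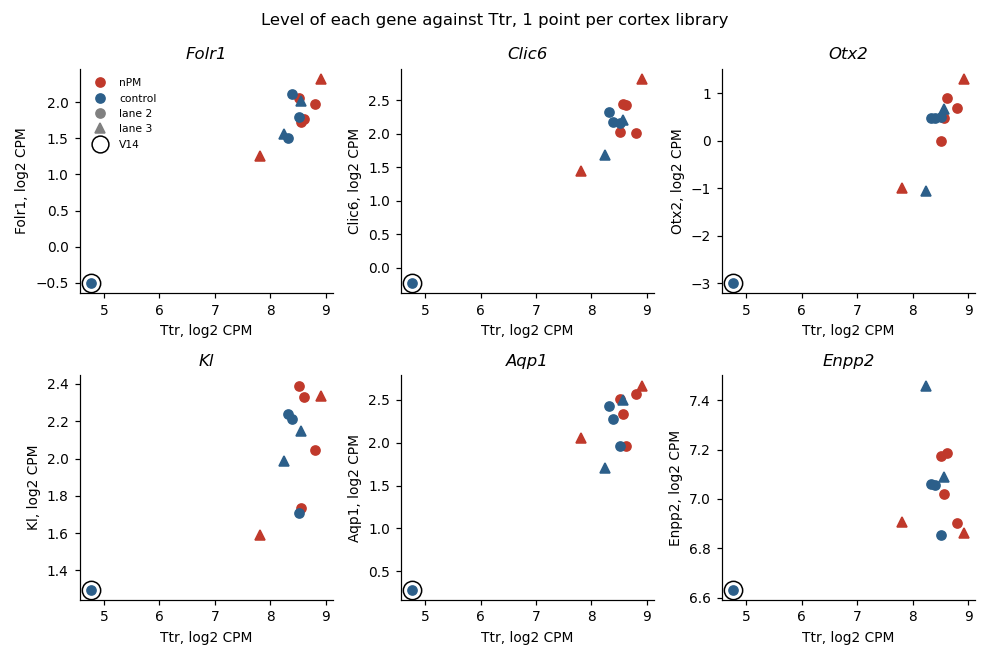
Log2 CPM of 6 genes (vertical axes) against log2 CPM of Ttr (horizontal axes), 1 point per cortex library, with exposure by colour, lane by symbol and V14 circled. V14 lies alone at the lower left of each panel, and among the other 11 libraries Otx2, Folr1 and Clic6 still increase with Ttr with r of 0.78 to 0.85, while r is -0.22 for Enpp2.

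Much of these coefficients came from V14. Without it 3 relations passed by Pearson's r and only that with Otx2 passed by Spearman's rho. In the other 11 libraries r with Ttr was 0.85 for Otx2 (adjusted permutation p = 0.0045), 0.81 for Folr1 (p = 0.00636) and 0.78 for Clic6 (p = 0.0124). It was 0.52 for Kl (permutation p = 0.122), 0.55 for Aqp1 (p = 0.111) and -0.22 for Enpp2 (p = 0.504). Spearman's rho in these libraries was 0.89 for Otx2 (adjusted permutation p = 0.0027), 0.59 for Folr1, 0.61 for Clic6 and 0.57 for Aqp1 (p = 0.107 each), 0.44 for Kl (p = 0.218) and -0.25 for Enpp2 (p = 0.452). When V23 was left out as well, so that the 2 libraries farthest from the median of Ttr were gone, no relation passed by r, and that with Otx2 passed by rho (0.87, adjusted permutation p = 0.0129). Then r was 0.76 for Otx2 (adjusted permutation p = 0.0632), 0.68 for Folr1 (p = 0.0742), 0.60 for Clic6 and for Aqp1, 0.17 for Kl and -0.67 for Enpp2. Within lane 2 with V14, r was 0.72 (Kl) to 0.98 (Otx2), with Enpp2 at 0.75. Without V14 (7 libraries) r was 0.39 for Otx2, 0.29 for Folr1, -0.27 for Clic6, -0.18 for Kl, 0.12 for Aqp1 and -0.27 for Enpp2. The 4 libraries of lane 3 are too few for a correlation. With V14 and lane 3 both left out, no r was thus above 0.39.

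Of 15692 other genes with a mean of at least 1 CPM, the 10 most like Ttr over the 12 libraries included Tmem72 (r = 0.99), 1500015O10Rik (0.99), Fam198a (0.97), Pecam1 (0.96), Kcne2 (0.95), Kdr (0.95), Slc13a4 (0.94), Lama1 (0.94) and Nid1 (0.93). Tmem72, 1500015O10Rik, Kcne2 and Slc13a4 were in the choroid plexus list. Pecam1 and Kdr are endothelial genes, and Lama1 and Nid1 encode proteins of the basement membrane. Without V14 3 of the 10 stayed among the 10 most alike, 1500015O10Rik (r = 0.89), Tmem72 (0.84) and Fam198a (0.84). Pecam1 and Kdr then had r of 0.43 and 0.41.

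The comparison of nPM with filtered air is the study's main question, and none of the 7 genes passed it. Ttr was at 223.8, 385.0 and 484.2 CPM as lowest, median and highest in nPM cortex and at 27.2, 328.7 and 377.8 CPM in control cortex. The means were 382.1 ± 89.7 CPM (SD, n = 6) and 288.4 ± 130.9 CPM (SD, n = 6), and 340.7 ± 30.8 CPM in controls without V14 (n = 5). The groups overlapped for each of the 7 genes. With exposure, sex and RIN in the model, edgeR's quasi-likelihood test gave Ttr a log2 fold change (nPM minus control) of 0.43 ± 0.38 (SE, Benjamini-Hochberg adjusted p = 0.899). For Otx2 the log2 fold change was 0.48, for Aqp1 0.40, for Clic6 0.32, for Folr1 0.27, for Kl 0.13 and for Enpp2 -0.04, with adjusted p of 0.862 to 0.969 over the 7 genes. No member had an unadjusted edgeR p under 0.05, where 5.67% of all genes tested did. DESeq2 gave 1 of 7 at that level (all genes 5.04%) and 0 after adjustment. Over all genes 3, or 0.0144%, passed an adjusted p of 0.05 and 0.614% passed an unadjusted p of 0.005. The exact permutation test of 6 against 6 libraries, two-sided, gave p = 0.175 for Ttr and 0.177 for Aqp1, and 0.297 to 0.803 for the other 5 genes. The smallest p this design allows is 0.00216.

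Leaving out V14 reduced the positive differences. The log2 fold changes became 0.17 for Ttr, 0.25 for Otx2, 0.23 for Aqp1, 0.10 for Clic6, 0.08 for Folr1, 0.05 for Kl and -0.12 for Enpp2, and the exact permutation p 0.351 for Ttr and 0.355 for Aqp1. Within lane 2 the difference in mean log2 CPM of Ttr was 1.13, within lane 3 it was -0.04, and within lane 2 without V14 0.22. Folr1 had 0.65, 0.00 and 0.08, and Otx2 0.90, 0.35 and 0.03. When genes with at least 1 count in any library were tested, Ttr passed with an adjusted edgeR p of 0.00132 at a log2 fold change of 0.43 (0.57% of all genes passed), and without V14 under the same filter its adjusted p was 0.937.

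**Figure D4:**
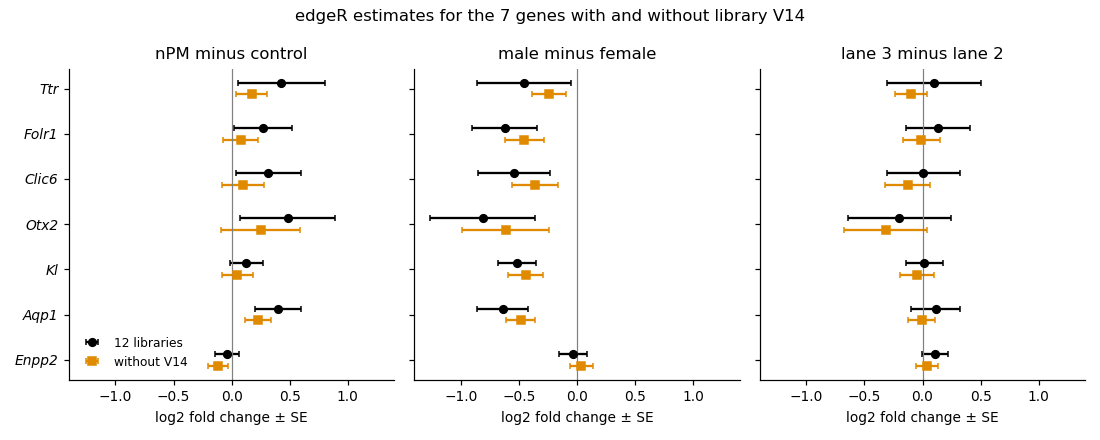
edgeR log2 fold changes ± SE of the 7 genes for exposure, sex and lane, with all 12 cortex libraries (black circles) and without V14 (orange squares). Leaving out V14 moves the exposure estimates of the 7 genes to between -0.12 and 0.25, with 6 of 7 still positive. Their median is 0.32 with V14 and 0.10 without it. Of the sex estimates 6 of 7 stay negative, with a median of -0.54 with V14 and -0.44 without it.

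The other choroid plexus genes gave a similar picture. Of the 33, 28 had a higher and 5 a lower estimate in nPM cortex (all 20857 genes 10197 and 10660). Their median log2 fold change was 0.25 (7 members 0.32, all genes 0.00). Of the 33, 4 had an unadjusted edgeR p under 0.05 (all genes 5.67%) and 0 passed an adjusted p of 0.05 (all genes 0.0144%). Without V14 the median was 0.12, again with 28 higher and 5 lower (all 20980 genes 10250 and 10730). Then 0 of 33 had an unadjusted edgeR p under 0.05, against 1082 of the 20980 genes. Lists of other tissues changed with V14 as well. The striatal list (Drd1, Drd2 and Adora2a among 10) had a median of 0.23 with V14 and 0.04 without it, the meningeal list 0.17 and 0.10, and the endothelial list 0.03 and -0.03. Ependymal genes (Foxj1, Ccdc153 and Tmem212 among 11 tested) had medians of 0.15 and 0.13. Oligodendrocyte genes (Mbp and Mag among 11), a further source of Enpp2, had -0.42 and -0.54. Of these 11, 4 and 7 were lower at an unadjusted edgeR p under 0.05. Among all genes 614 of 20857 and 560 of 20980 were lower at that level. Genes of thalamus, hypothalamus and midbrain (Tcf7l2, Slc17a6 and Lhx9 among 8 tested) had 0.27 and 0.19, those of hippocampus and cortical hem (Prox1, Zbtb20 and Lhx2 among 7) 0.07 and 0.09, cortical projection neurons -0.10 and -0.08 and red blood cells -0.03 and -0.18. The part of these lists in the estimates of the 7 genes was not tested.

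Partners of the 7 genes were taken from their pathways, and 33 of 34 could be tested. In nPM cortex 22 were higher and 11 lower, with a median of 0.03 (all 20857 genes 10197 and 10660). Of the 33, 0 passed an adjusted edgeR p of 0.05 or an unadjusted p of 0.005 (all genes 0.0144% and 0.614%). With unadjusted edgeR p under 0.05, 3 were higher and 1 was lower, against 569 and 614 of all 20857 genes. For the transport of thyroxine and retinol, Slco1c1, the thyroxine transporter, had a log2 fold change of 0.08 and Rbp4, the retinol carrier, 0.01. Dio3, the deiodinase that inactivates thyroid hormone, had 1.30 (unadjusted p = 0.0149, adjusted p = 0.844), from levels of 0.533 ± 0.331 CPM in nPM and 0.220 ± 0.185 CPM in control libraries (SD, n = 6 each). In the folate pathway Folr2, the folate receptor of macrophages, had 0.81 (edgeR adjusted p = 0.844) and Slc46a1, the proton-coupled folate transporter, 0.16. Of the receptors that klotho joins, Fgfr1 had 0.01 and Fgfr2 0.15 (unadjusted p = 0.00591). Of the channels, Aqp4, the astrocyte water channel, had 0.04 and Clic5 -0.34 (unadjusted p = 0.00997). The receptor Lpar1 and the phosphatase Plpp3, which act on the product of autotaxin, had 0.10 and 0.03.

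Of the 4 comparisons, that of the sexes gave the smallest edgeR p for Aqp1, Kl, Folr1, Otx2 and Clic6, but not for Ttr and Enpp2. Aqp1 was at 4.81, 5.66 and 6.33 CPM in females (lowest, median, highest) and 1.20, 3.88 and 5.02 CPM in males, so that the sexes overlapped in 1 male and 1 female library. Kl was at 4.11, 4.66 and 5.23 CPM in females and 2.44, 3.28 and 5.02 CPM in males, and Folr1 at 2.81, 4.09 and 4.99 against 0.692, 3.11 and 3.44 CPM. The edgeR log2 fold changes (male minus female) were -0.64 ± 0.22 for Aqp1, -0.52 ± 0.16 for Kl and -0.62 ± 0.28 for Folr1 (SE, adjusted p = 0.797 each). They were -0.81 for Otx2, -0.54 for Clic6, -0.46 for Ttr and -0.03 for Enpp2, and all 7 were thus below 0. Kl, Aqp1 and Folr1 had unadjusted p of 0.00594, 0.0103 and 0.0393, so 3 of 7 were under 0.05, against 6.09% of all genes. None was under 0.005, a level that 0.518% of all genes reached, and DESeq2 gave 2 of 7 under 0.005 (all genes 0.695%) and 0 after adjustment.

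The two-sided exact permutation test gave p = 0.00433 for Aqp1, 0.0152 for Folr1, 0.0173 for Kl, 0.0996 for Ttr, 0.104 for Otx2, 0.190 for Clic6 and 0.976 for Enpp2. Without V14, itself a male, p was 0.00866 for Aqp1, 0.0303 for Folr1 and 0.0346 for Kl by the same exact test, and the edgeR estimates were -0.49, -0.45 and -0.44 with adjusted p of 0.923. The permutation tests for sex were added after the values were seen. Among the 33 other choroid plexus genes 26 were lower and 7 higher in males (all genes 10778 and 10079). Their median was -0.36 (all genes -0.01), and -0.24 without V14. Lists of other tissues gave medians below 0 as well. The median was -0.58 for genes of thalamus, hypothalamus and midbrain (7 of 8 lower, -0.57 without V14), -0.32 for striatal genes (9 of 10 lower, -0.17 without V14) and -0.29 for ependymal genes (8 of 11 lower, -0.27 without V14). It was -0.10 for meningeal genes, 0.03 for cortical projection neurons and 0.11 for red blood cells. The part of these lists in the sex estimates of the 7 genes was not tested. Cldn2, a tight junction gene of the epithelium, had the smallest p on the lower side, at a log2 fold change of -0.92 (unadjusted p = 0.00127, edgeR adjusted p = 0.733). Col8a1, a collagen gene, had 0.33 (unadjusted p = 0.000453, adjusted p = 0.450). With genes of at least 1 count in any library, Ttr, Folr1 and Aqp1 passed for sex (edgeR adjusted p = 0.00252, 0.0434 and 0.00691), as did 0.508% of all genes. Without V14 under that filter 0 of 7 passed, with 6 of 7 at an unadjusted p under 0.05 against 4.42% of all genes.

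Neither the difference of the nPM effect between the sexes nor the lane singled out any of the 7 genes. For the former (male minus female), 0 of 7 had an unadjusted edgeR p under 0.05 (all genes 9.68%) and DESeq2 also gave 0 (all genes 7.95%), with values from 0.06 for Folr1, Enpp2 and Kl to 0.62 for Otx2. Of all genes 1.35% were under 0.005. The value for Ttr was 0.25 with V14 and -0.41 without it. Between lanes (lane 3 minus lane 2), 0 of 7 had an unadjusted edgeR p under 0.05 (all genes 2.55%, and 0.264% under 0.005) and DESeq2 gave 0 too (all genes 1.77%). Ttr was at 27.2, 365.6 and 448.3 CPM on lane 2 and 223.8, 340.6 and 484.2 CPM on lane 3. Its log2 fold change was 0.10, and -0.10 without V14, and its two-sided exact permutation p was 0.941. Red blood cell genes (Hba-a1, Hba-a2 and Hbb-bs among 9 tested), a further source of Aqp1, did differ by lane, with summed levels of 252.2 to 463.0 CPM on lane 2 and 636.9 to 698.3 CPM on lane 3, while the lane difference of Aqp1 was 0.11 (edgeR adjusted p = 1.0).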

How the data were processed

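Libraries of total RNA from cortex and blood were made with the RiboZero Gold kit, which removes ribosomal RNA. The authors trimmed reads with Trimmomatic where needed, used HISAT2 for alignment to mm10, and obtained a count for each Gencode M11 gene from featureCounts (1.5.0-p3, per the submitters' processing notes). The deposited table holds these counts, not normalized. The deposited gene table adds positions and lengths, and its mean RPKM column of the authors was not used here. How reads with several matches were counted and the strand setting are not given in the sources used here.

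The members and gene lists were chosen with earlier results of these data known. Named genes are the members, the 4 other choroid plexus genes highest in RPKM or with p under 0.005, the 10 genes most like Ttr, members' partners and the first 3 genes of other lists. Of 169 listed genes 168 were found. The results of some genes that this rule names are not reported here. edgeR 4.0.16 (quasi-likelihood, TMM, R 4.3.3) was fitted to the 12 cortex libraries with exposure, sex and RIN, on genes with at least 1 count in each library, and adjusted by Benjamini-Hochberg. A prior count of 0.5 was used for log2 values. The SE of an edgeR estimate is its absolute log2 fold change divided by the square root of the quasi-likelihood F statistic. Permutation tests ran on CPM (exact) or log2 CPM (100000 resamples, scipy 1.17.1). The alternatives were DESeq2 1.42.0, limma 3.58.1 (voom), RLE scaling, other filters, other covariates and each library left out. When 200 genes of simulated cortex libraries were given 2-fold changes, the nPM fit recovered 156 at the adjusted threshold. These were drawn from all tested genes, whose median SD of log2 CPM was 0.18, against 0.73 for the 7 genes. Recovery for genes as variable as the 7 was not measured. No 2 cortex libraries were copies (smallest chi-square per gene 7.01). Neonates of the same sex and exposure came from different litters, but the labels name no animals, so litters shared between the sexes could not be modelled.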

Additional observations from a re-analysis of the deposited data

Results flagged for a closer look

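Ttr in V14 stood apart within the controls: at 27.2 CPM it was the lowest of 6 control libraries, and its gap to the next library took 0.788 of the group's range, above the critical value of 0.625 of Dixon's test. At the low end of the controls, this share was 0.585 for Folr1, 0.570 for Clic6, 0.458 for Aqp1 and 0.358 for Kl. It was 0.243 for Otx2 and 0.215 for Enpp2, so none of these passed. The shares are of CPM, not of log2 CPM. As a percent of the median of the other 11 cortex libraries, Otx2 in V14 (7.93%) was about as low as Ttr (7.43%). No gene passed at the high end of the controls or at either end of the nPM group. Chance flags about 1 in 20 groups, and each gene was screened in both exposure groups, so 1 flag could arise by chance. The cause of the low Ttr level was not tested.

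Ttr was also found in blood, which no comparison above used. The 4 blood libraries of lane 3 held 8 (V17), 16 (V18), 5 (V21) and 9 (V22) counts, or 0.286 to 0.747 CPM of the library total, and the 8 blood libraries of lane 1 held 0, where 3 counts would be 0.137 to 0.221 CPM. The two-sided exact permutation test of 4 against 8 gave p = 0.00404, the smallest it can give. It was chosen after these counts were seen. With each lane 3 count above 0 and each lane 1 count at 0 it could give no other p, so it adds nothing to the counts. The mean of the lane 3 blood libraries was 0.135% of the mean of the 4 cortex libraries of that lane (346.8 CPM). Lane 3 carried both tissues and lane 1 blood alone. Genes of cortical projection neurons summed to 2.03 to 3.72 CPM in blood on lane 3 and 0.591 to 42.2 CPM on lane 1. Their part in the Ttr counts was not tested.

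Enpp2 had 560 counts in blood library V2, a control female, 28 in V5 and 0 to 11 in the other 10. Folr1 and Otx2 had 0 counts in all 12 blood libraries.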

How the results depend on the processing

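Counting limits Otx2 most (3 counts in V14), and 6 libraries a group limit each comparison. No paired analysis was possible because the labels give no replicate number shared between groups. Directions of the nPM estimates held under each tool, scaling, filter and covariate tried with all 12 libraries, except that Otx2 was not fitted under the filter of 10 counts in every library. Ttr alone changed its call for nPM, to a log2 fold change of 0.43 that passed, under the filter of 1 count in any library. The causes of the changes below were not tested.

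For all genes, the calls at an adjusted p of 0.05 moved with the setting. For nPM (3 calls) there were 22 with DESeq2, 185 with genes of 1 count in any library (49 without V14 as well), and 1 without RIN or with lane as a covariate. For sex (7 calls) there were 26, 165 and 39, for the sex difference of the nPM effect (0 calls) 67 with DESeq2 and 379 with the filter, and for lane (6 calls) 15 and 27. At an unadjusted p of 0.005 that filter gave 526 for nPM (290 without V14), 460 for sex (201 without V14), 787 for the sex difference and 112 for lane.

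With each library left out in turn, calls at the adjusted threshold were 0 to 6 for nPM (6 without V24, 1 without V14), 5 to 8 for sex, 0 to 1 for the sex difference and 5 to 11 for lane. At the unadjusted threshold they were 68 (without V11) to 315 (without V23), 42 to 427, 159 to 403 and 43 to 167. The nPM estimate of Enpp2 was -0.12 to 0.078 and its sex estimate -0.14 to 0.040 (0.043 without V14 under the wider filter too). The sex difference of the nPM effect was -0.41 to 0.65 for Ttr, -0.46 to 0.38 for Folr1, -0.080 to 0.94 for Clic6, -0.14 to 0.24 for Kl and -0.13 to 0.39 for Enpp2. The lane estimate was -0.10 to 0.39 for Ttr, -0.012 to 0.34 for Folr1, -0.14 to 0.19 for Clic6, -0.53 to 0.11 for Otx2, -0.087 to 0.11 for Kl, -0.0069 to 0.22 for Aqp1 and -0.061 to 0.25 for Enpp2.

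The relation with Ttr, with each library left out, had r of 0.52 to 0.78 for Kl, 0.55 to 0.95 for Aqp1 and -0.22 to 0.67 for Enpp2. Without V14 and V23 r was 0.68 for Folr1, 0.60 for Clic6, 0.76 for Otx2, 0.17 for Kl, 0.60 for Aqp1 and -0.67 for Enpp2, and none passed by r (Otx2 passed by rho, as given above). In lane 2 alone, 5 relations no longer passed by r, with r of 0.97, 0.97, 0.98, 0.72 and 0.95 in that order, and without V14 r was 0.29, -0.27, 0.39, -0.18, 0.12 and -0.27. After removal of exposure, sex, RIN and lane, Enpp2 reached r = 0.61 (permutation, adjusted p = 0.0394). The scale of the library total changed no call. Choices made after seeing the data were those without V14 in lane 2 or with the wider filter, for lists and for permutation tests.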
